A study of Homo sapiens with 2 samples.

Results

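The long arm of chromosome 19 (19q) held 1464 of the 22351 HNRNPK peaks of the list, a share of 6.55%, and 66.7% of the 2195 peaks on chromosome 19. The peaks were chosen by their place in the called list: the chromosome had to be 19 and the peak midpoint had to be at 27 Mb or more on GRCh38. No peak lay near that limit. The last peak below it, from 23531839 to 23532182, was 3.47 Mb away and had a pileup of 5.84 and a fold enrichment of 3.34, and the first peak above it, from 27640192 to 27640486, was 0.640 Mb away and had a pileup of 10.71 and a fold enrichment of 3.35. The data are a ChIP-seq experiment on HNRNPK in untreated H1299 cells, an established human non-small cell lung cancer line, with 1 library from the immunoprecipitation with an HNRNPK antibody (IP) and 1 library of input DNA. Peaks were called on the IP against the input, so there was 1 peak list and no replicate, and differences are given as descriptions with no test.

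HNRNPK is a nuclear protein with KH domains that bind C-rich single strands of RNA and DNA, and it is known to act in transcription, splicing and the transport of mRNA. The long arm of chromosome 19 is rich in genes and carries large tandem families, among them KRAB zinc finger repressors, kallikreins, pregnancy-specific glycoproteins and receptors of leukocytes. In the RefSeq promoter windows used further on, G and C made up 61.3% on 19q, beside 57.5% in all such windows.

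Promoters under peaks of high pileup are shown first, since they are the places where a peak, a gene start and a known sequence meet. From the promoter windows under the 8 peaks of highest pileup and those tied with the last of them, the protein-coding genes are shown whose upstream bases lie outside every RefSeq gene span, so that VASP, CCDC97 and 3 noncoding genes are left out. The 250 bases before the gene start are printed 5′ to 3′ on the gene's strand, from the RefSeq promoter windows of GRCh38.p14, and capitals mark the bases under the peak. RPS16 (chr19:39435950-39436199, minus strand), RPS19 (chr19:41860005-41860254, plus strand), AXL (chr19:41218973-41219222, plus strand), DMPK (chr19:45782491-45782740, minus strand) and CATSPERG (chr19:38335580-38335829, plus strand) lay in the stretch of 19q with many peaks.
RPS16: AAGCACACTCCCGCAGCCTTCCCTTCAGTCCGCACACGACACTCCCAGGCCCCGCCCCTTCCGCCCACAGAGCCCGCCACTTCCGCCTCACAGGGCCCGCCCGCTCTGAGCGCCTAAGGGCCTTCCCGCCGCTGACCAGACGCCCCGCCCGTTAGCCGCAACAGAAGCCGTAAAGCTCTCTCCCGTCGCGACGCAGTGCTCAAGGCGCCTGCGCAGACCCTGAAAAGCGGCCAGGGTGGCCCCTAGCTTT
RPS19: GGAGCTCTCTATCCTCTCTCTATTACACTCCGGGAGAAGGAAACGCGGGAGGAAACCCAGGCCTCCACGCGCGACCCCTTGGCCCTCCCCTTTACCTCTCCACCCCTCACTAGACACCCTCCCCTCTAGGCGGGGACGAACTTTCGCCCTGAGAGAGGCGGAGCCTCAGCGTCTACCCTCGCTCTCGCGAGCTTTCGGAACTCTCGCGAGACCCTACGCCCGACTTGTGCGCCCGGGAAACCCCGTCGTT
AXL: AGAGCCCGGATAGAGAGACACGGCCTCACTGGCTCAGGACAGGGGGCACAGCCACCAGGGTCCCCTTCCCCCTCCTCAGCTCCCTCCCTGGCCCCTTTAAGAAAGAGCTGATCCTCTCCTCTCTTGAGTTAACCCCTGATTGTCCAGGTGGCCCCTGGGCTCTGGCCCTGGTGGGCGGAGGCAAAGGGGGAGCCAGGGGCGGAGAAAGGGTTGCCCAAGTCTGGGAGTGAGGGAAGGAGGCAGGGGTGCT
DMPK: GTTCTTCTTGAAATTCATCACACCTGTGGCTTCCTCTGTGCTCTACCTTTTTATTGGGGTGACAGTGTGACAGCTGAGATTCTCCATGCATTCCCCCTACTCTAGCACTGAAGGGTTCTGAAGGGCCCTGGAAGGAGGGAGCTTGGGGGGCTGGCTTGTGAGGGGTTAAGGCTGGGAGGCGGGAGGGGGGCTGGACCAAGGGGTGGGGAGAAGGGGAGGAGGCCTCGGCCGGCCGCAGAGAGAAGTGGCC
CATSPERG: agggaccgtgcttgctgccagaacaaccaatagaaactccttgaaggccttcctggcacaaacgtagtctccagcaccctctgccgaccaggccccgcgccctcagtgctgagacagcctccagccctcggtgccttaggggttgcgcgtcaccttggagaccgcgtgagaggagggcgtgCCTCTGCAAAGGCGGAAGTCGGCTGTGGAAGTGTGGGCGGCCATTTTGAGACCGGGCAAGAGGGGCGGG
FAM83E (chr19:48615077-48615326, minus strand), NAT14 (chr19:55484938-55485187, plus strand) and HAS1 (chr19:51723992-51724241, minus strand) lay in the stretch with few peaks, and they were chosen after their values were seen, as the promoter peaks with the highest pileup there.
FAM83E: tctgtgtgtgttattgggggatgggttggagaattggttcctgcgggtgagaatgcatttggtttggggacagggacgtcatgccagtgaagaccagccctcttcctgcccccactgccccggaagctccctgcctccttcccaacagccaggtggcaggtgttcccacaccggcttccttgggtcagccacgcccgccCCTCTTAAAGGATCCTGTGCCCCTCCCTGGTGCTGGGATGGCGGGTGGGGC
NAT14: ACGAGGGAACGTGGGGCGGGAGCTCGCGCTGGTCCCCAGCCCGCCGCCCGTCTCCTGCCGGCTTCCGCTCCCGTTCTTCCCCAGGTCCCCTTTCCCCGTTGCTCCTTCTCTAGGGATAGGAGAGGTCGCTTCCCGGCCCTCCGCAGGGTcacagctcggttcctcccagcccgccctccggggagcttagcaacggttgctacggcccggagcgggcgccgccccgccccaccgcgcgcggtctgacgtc
HAS1: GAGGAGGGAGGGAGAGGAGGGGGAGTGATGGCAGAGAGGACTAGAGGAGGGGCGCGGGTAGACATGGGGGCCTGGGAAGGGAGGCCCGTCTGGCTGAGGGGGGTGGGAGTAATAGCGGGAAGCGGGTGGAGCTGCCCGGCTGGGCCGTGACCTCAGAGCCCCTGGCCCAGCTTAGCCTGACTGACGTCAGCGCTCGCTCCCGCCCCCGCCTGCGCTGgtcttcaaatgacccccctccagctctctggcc
The peak covered all 250 bases in RPS16, RPS19, AXL and DMPK, 217 in HAS1, 149 in NAT14, 69 in CATSPERG and 51 in FAM83E. A single microRNA hairpin on 19q overlapped a peak, MIR6887, and its mature RNAs are printed with the seed (bases 2 to 8) in capitals, from RefSeq on GRCh38.p14 (chr19:35122705-35122727 and chr19:35122744-35122764, plus strand). Both seeds are runs of mostly 1 base, and the seed of the 3p arm is of the C-rich kind.
hsa-miR-6887-5p: uGGGGGGAcagauggagaggaca
hsa-miR-6887-3p: uCCCCUCCacuuuccuccuag

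Peaks were not spread evenly along 19q. The centromere side was dense and the telomere side was sparse, with a sharp change near 45.9 Mb. The 19 bins of 1 Mb from the limit to 46 Mb held 13 to 140 peaks each with a median of 71, and the 13 bins from there to the end of the chromosome held 4 to 22 each with a median of 12. Every bin had at least 4 peaks.

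**Figure D1:**
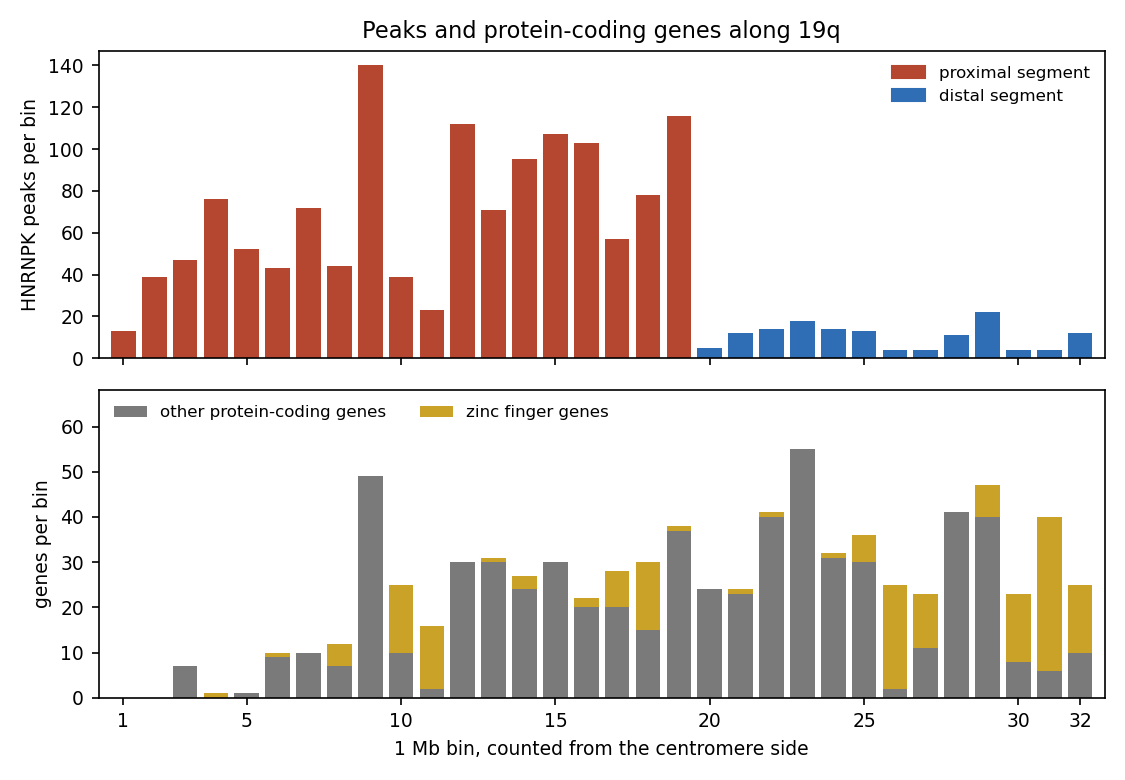
Upper plot, the number of HNRNPK peaks in each 1 Mb bin of 19q, with bins counted from the centromere side. Lower plot, the number of protein-coding RefSeq genes in the same bins, split into zinc finger genes and other genes. Bins 1 to 19 held up to 140 peaks and bins 20 to 32 at most 22, while genes were found in number on both sides.

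The same change showed in the local background of the peaks. This background is the value from the input that the peak caller sets against the IP at a peak. It was worked out here from the deposited columns by adding 1 to the pileup, dividing by the enrichment and taking 1 off again. Its lowest value, 1.04491, was the same on 19q, on the short arm, on chromosome 17 and over all chromosomes, and it was read as a floor. At a peak with that value the local input coverage may be lower than the value given. The pileup is the IP coverage of the peak in scaled fragments, and each pileup was a whole multiple of 0.973, so that it can be read as a number of fragments. A single dividing point was placed after the values were seen, between the neighbouring peaks where it left the least spread of the log2 background on both sides. It fell between the peak from 45797882 to 45798116, in RSPH6A, with a background of 3.03 and a pileup of 13.63, and the next peak, from 45930030 to 45930455, with a background of 1.04 and a pileup of 6.81. The gap of 131.9 kb between them touched 6 protein-coding genes, which were RSPH6A, SYMPK, FOXA3, IRF2BP1, MYPOP and NANOS2. SYMPK, which codes for a scaffold of the mRNA 3′ end processing machinery, had no peak. The 2 sides are called the proximal segment (toward the centromere) and the distal segment (toward the telomere).

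The change was abrupt at the scale of single peaks. The last 20 proximal peaks lay within 113.9 kb and had backgrounds from 2.80 to 6.001, with a median of 3.15. The first 20 distal peaks were spread over 2231 kb and had backgrounds from 1.04 to 4.00, with a median of 1.05. Over the whole segments, 1311 of 1326 proximal peaks (98.9%) and 14 of 138 distal peaks (10.1%) had a background of 2 or more, with values less than 0.005 below a limit counted as at it here and in the classes further on. The dividing point was placed on the background, so the difference in background between the segments is part of their definition and supports nothing further. The number of DNA copies of the 2 stretches in these cells was not analysed here, and its part in the background, the pileup and the number of peaks was not tested.

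The proximal segment held 1326 peaks in 18.2 Mb, which is 72.8 peaks per Mb, and the distal segment 138 peaks in 12.7 Mb, which is 10.8 per Mb. The ratio of these densities was 6.72. The short arm had 30.3 peaks per Mb and chromosome 17 had 15.9, so the proximal segment was above both and the distal segment was below both. Protein-coding genes were distributed the other way, with 19.9 per Mb in the proximal and 34.6 per Mb in the distal segment. There were 3.66 peaks per protein-coding gene in the proximal segment, 0.313 in the distal segment and 1.13 on the short arm.

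**Figure D2:**
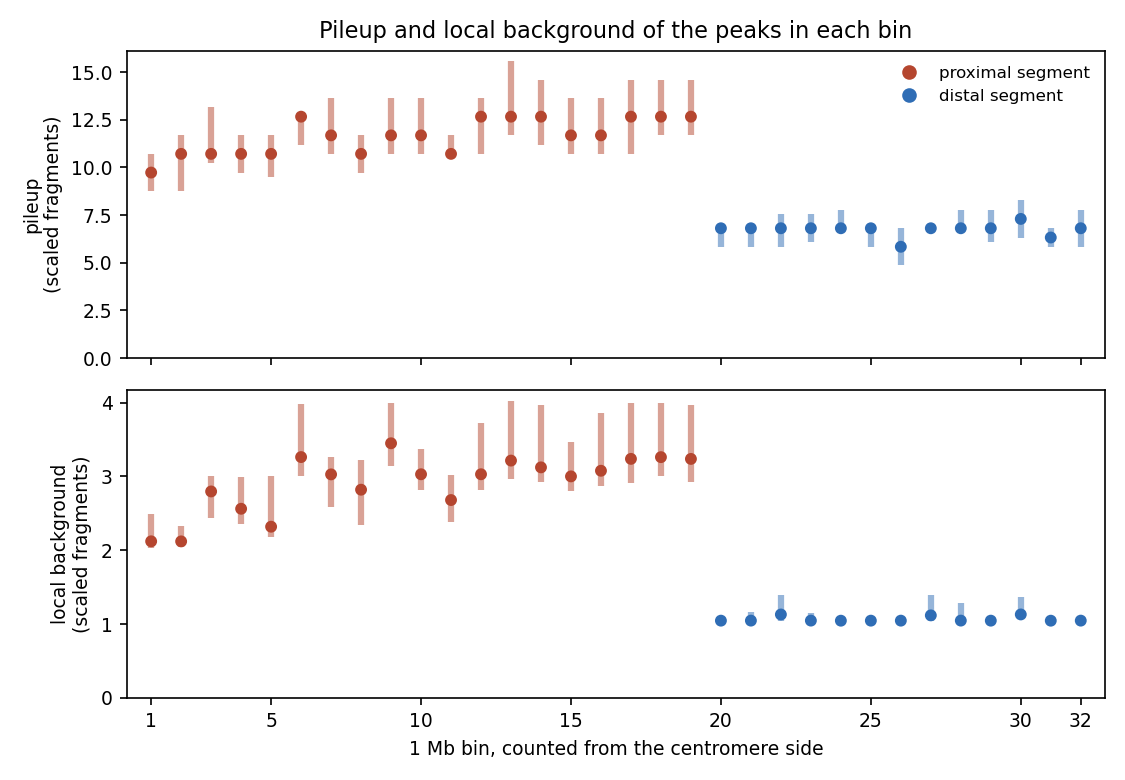
Median (points) and interquartile range (bars) of the pileup and of the local background of the peaks in each 1 Mb bin, both in scaled fragments, with bins counted from the centromere side. Bin medians of the background were 2.12 to 3.45 in bins 1 to 19 and 1.05 to 1.13 in bins 20 to 32.

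Pileups moved with the background. The median pileup was 11.68 on 19q, or 12 fragments, and it was 11.68 in the proximal segment, 6.81 in the distal segment and 7.79 on the short arm and on chromosome 17. Bin medians ran from 9.73 to 12.66 in the proximal segment and from 5.84 to 7.3 in the distal segment, so the ranges of the bins did not overlap. A pileup of 10 fragments or more was seen in 1238 proximal peaks (93.4%) and in 10 distal peaks (7.25%).

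Fold enrichment went the other way. The median was 3.17 on 19q, 3.12 in the proximal segment and 3.77 in the distal segment, beside 3.65 on the short arm and 3.58 on chromosome 17. The background was worked out from the pileup and the fold enrichment and the segments were divided on it, so the relation of these 3 values to each other and part of their differences between the segments follow from the construction. In the proximal segment, peaks with a background from 2 to below 3 had a median fold enrichment of 3.38, those from 3 to below 4 had 3.14, those from 4 to below 6 had 2.60, and the 26 peaks at 6 or more had 2.37. The 15 proximal peaks below 2 had 3.58. The lowest number of fragments in a peak was 8 in that class and 7, 9, 10 and 14 in the 4 classes above it. The lowest background on 19q was 1.04491, and 95 distal peaks and 1 proximal peak, at 1.04635, were counted as at or slightly above it. Of these 95 distal peaks, none was below a fold enrichment of 2.87, reached with 5 fragments. Among proximal peaks, 387 (29.2%) were below that value.

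**Figure D3:**
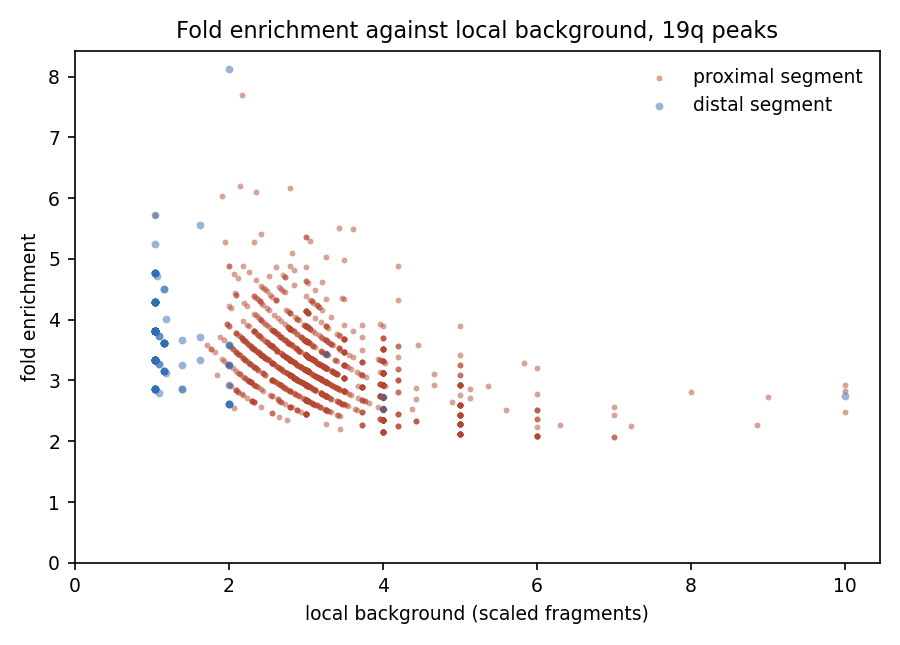
Fold enrichment against local background (scaled fragments) for the 1464 peaks of 19q, with 1 point per peak. Distal peaks sit near a background of 1, proximal peaks mostly between 2 and 4, and the fold enrichment of the proximal peaks falls as the background rises.

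The excess of proximal over distal peaks was smaller at a fold enrichment of 3 or more and of 4 or more than for all peaks, and larger with an FDR under 0.05. The proximal segment held 90.6% of all 19q peaks, 80.3% of those at a fold enrichment of 4 or more and 95.4% of those with an FDR under 0.05. At a fold enrichment of 3 or more there were 43.1 peaks per Mb in the proximal and 9.26 in the distal segment, a ratio of 4.65. At 4 or more the densities were 6.04 and 2.12 with a ratio of 2.85, and at 5 or more, with 16 and 4 peaks, 0.878 and 0.314 with a ratio of 2.80. The short arm had 9.32 peaks per Mb at 4 or more and 1.28 at 5 or more, above the proximal segment in both classes. At 6 or more, with 5 proximal, 1 distal and 4 short-arm peaks, the proximal segment had 0.274 per Mb and the short arm 0.166, and the ratio of the proximal to the distal density was 3.50. The order of the proximal segment and the short arm was therefore the other way round at 4 or more and at 5 or more than for all peaks, and at 6 or more it rested on few peaks. The part of the local background in the number of peaks was not tested.

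An FDR under 0.05 was reached by 304 of 1464 peaks (20.8%, Wilson 95% confidence interval 18.8% to 22.9%), beside 15.5% of the whole list. These intervals cover counting error only. The share was 21.9% in the proximal segment (290 peaks, 19.7% to 24.2%) and 10.1% in the distal segment (14 peaks, 6.14% to 16.3%). On the short arm it was 17.5%. Within the proximal segment the share varied from 2.27% in bin 8 (34 to 35 Mb) to 32.1% in bin 12 (38 to 39 Mb), and 6 distal bins had no such peak.

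Peaks were longer in the proximal segment. The median length was 314 bp on 19q, 319 bp in the proximal and 264.5 bp in the distal segment, with rank intervals of 311 to 329 bp and 243 to 284 bp. The lowest length of the list, 233 bp, was found for 185 proximal peaks (13.95%) and 53 distal peaks (38.4%). Lengths of 500 bp or more were found for 204 proximal peaks (15.4%) and 5 distal peaks (3.62%), beside 9.30% on the short arm. Bin medians were highest in bin 13 (39 to 40 Mb) at 359 bp and lowest in bin 31 (57 to 58 Mb) at 233 bp.

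Neighbouring peaks on 19q had a median distance of 6.87 kb between midpoints (rank interval 6.13 to 7.69 kb). The median was 5.99 kb in the proximal segment, 51.1 kb in the distal segment, 17.8 kb on the short arm and 23.3 kb on chromosome 17. Proximal neighbours were thus closer than those of the short arm, and distal neighbours were farther apart than those of chromosome 17. In the proximal segment 851 of 1325 distances (64.2%) were at most 10 kb and 103 (7.77%) at most 1 kb, and in the distal segment 27 of 137 (19.7%) and 4 (2.92%). Joining peaks with a gap of at most 1000 bp left 1278 regions. Of these, 162 joined more than 1 peak and 21 joined 3 or 4, and 156 of the 162 were proximal. The joined region over DMPK and DMWD, from 45780134 to 45784611, was the longest at 4478 bp and took in 3 peaks.

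The 6 longest stretches without a peak were in the distal segment, and 3 of them were mainly over zinc finger genes. The stretch from 52774525 to 53479987 measured 705.5 kb and touched 23 protein-coding genes, 18 of them zinc finger genes, and the stretch from 51953278 to 52628802 measured 675.5 kb and touched 18, of which 17 were zinc finger genes. A stretch of 473.2 kb from 46639568 to 47112771 touched 12 protein-coding genes and no zinc finger gene. The next, of 425.1 kb, touched 19, of which 18 were zinc finger genes, and those of 375.8 and 372.2 kb touched 9 and 6, of which 1 and 3 were. In the proximal segment the longest such stretch, from 44119382 to 44457210, measured 337.8 kb, and all 9 protein-coding genes it touched were zinc finger genes, while the one after it, of 189.8 kb, touched 4 genes and none of that kind.

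Over all 32 bins the number of peaks and the number of protein-coding genes were unrelated, with a Pearson r of 0.04 and a Spearman rho of 0.00. Within each segment they moved together. Over the 19 proximal bins r was 0.74 and rho 0.70, and over the 13 distal bins r was 0.69 and rho 0.69. Peaks per bin and the median background had an r of 0.83 over the 32 bins, 0.62 over the proximal bins and -0.29 over the distal bins. Distal bin medians of the background ran only from 1.045 to 1.13, close to the lowest value, so the -0.29 shows no relation either way. The 32 bins share 1 IP and 1 input library, and the values are descriptions. Gene-poor bins on the proximal side nevertheless had peaks. The 4 bins 1, 2, 4 and 5, with 2 protein-coding genes in all, held 180 peaks. Of these, 45 were at those genes, ZNF536 and TSHZ3, and 135 were away from any protein-coding gene, beside 138 peaks in the whole distal segment with its 441 protein-coding genes.

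The densest bin was bin 9 (35 to 36 Mb), with 140 peaks, 49 protein-coding genes and a peak at 42 of them. Its genes with most peaks were GRAMD1A, which codes for a sterol transporter, with 7, and NFKBID, an inhibitor of NF-kB, and NPHS1, which codes for nephrin of the kidney filter, with 6 each. Bin 19 (45 to 46 Mb) followed with 116 peaks, among them 11 at EXOC3L2, 9 at GIPR, the receptor of an incretin hormone, and 7 at VASP, a regulator of actin. The lowest proximal bins were bin 1 (27 to 28 Mb), with 13 peaks and no protein-coding gene, and bin 11 (37 to 38 Mb), with 23 peaks and 14 zinc finger genes among its 16 protein-coding genes. On the distal side bins 26, 27, 30 and 31 had 4 peaks each. They held 23, 12, 15 and 34 zinc finger genes among 25, 23, 23 and 40 protein-coding genes. Their peaks were at genes such as ZNF83 with 3 and ZNF547 with 2. Other distal bins went the other way. Bin 20 had 5 peaks and 0 zinc finger genes among 24 protein-coding genes. Bin 32, of 0.608 Mb, had 12 peaks and 15 zinc finger genes among 25. Bin 23 (49 to 50 Mb) had the most protein-coding genes of the arm, 55, and 18 peaks.

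Across all chromosomes, 2475 bins of 1 Mb held a peak, and the 10 with most peaks were all proximal bins of 19q. The densest bin elsewhere, on chromosome 7 from 1 Mb, had 67 peaks. Of the 746 bins with at least 10 peaks, 31 had a median background of 2.5 or more, and 16 of the 31 were on 19q. Elsewhere 21 of 719 such bins had a median background at or above that of the lowest proximal bin.

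Most peaks were inside or near genes, somewhat more than the proportion of the sequence that genes take. The midpoint was inside a RefSeq gene or within 1000 bp of it for 1136 of 1464 peaks (77.6%, 75.4% to 79.7%), and such sequence made up 71.7% of the arm. In the proximal segment the share was 76.6% beside 66.7% of the sequence, and in the distal segment 87.0% beside 78.9%. Peaks inside protein-coding genes numbered 90.9 per Mb of such sequence in the proximal segment and those outside 55.1 per Mb, and in the distal segment 12.1 and 8.77 per Mb. Proximal sequence outside protein-coding genes thus held more peaks per Mb than distal protein-coding genes.

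Of the 803 protein-coding genes of 19q, 360 had a peak midpoint inside or within 1000 bp (44.8%, 41.4% to 48.3%), beside 32.0% of all protein-coding genes of the genome. In the proximal segment 261 of 362 genes (72.1%, 67.3% to 76.5%) had one, and in the distal segment 99 of 441 (22.4%, 18.8% to 26.6%). The arm as a whole was close to the short arm, at 49.1%, and this hid a proximal share above and a distal share below it. Genes with 5 or more peaks numbered 55 and those with 10 or more 14, and all of them were proximal. The distal segment had 78 genes with 1 peak and 21 with 2 to 4.

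The genes with most peaks were long. ZNF536, a zinc finger repressor of neural genes, had 34 peaks over 488.0 kb, of which 7 had an FDR under 0.05, and the highest pileup was 15.58. RYR1, the calcium release channel of skeletal muscle, had 30 peaks over 153.9 kb, of which 9 had an FDR under 0.05, with a highest fold enrichment of 5.41. POU2F2, a lymphoid transcription factor, had 23 peaks over 111.8 kb and a highest fold enrichment of 6.10. Per length the order was another one. ARHGEF1, an activator of RhoA, had 18 peaks over 46.96 kb, which is 3.68 per 10 kb when the 1000 bp at either end are counted in the length, and EXOC3L2 had 11 peaks and 3.14 per 10 kb, beside 1.92 for RYR1 and 0.694 for ZNF536. The list of 10 went on with PEPD, a peptidase of proline-containing dipeptides, with 16 peaks, SPTBN4, a spectrin of axons, with 15, CHST8, a sulfotransferase, and SIPA1L3 with 14 each, and FCGBP with 11, with which TSHZ3, a zinc finger homeobox gene, was tied. In the proximal segment the number of peaks and the gene length had an r of 0.71 and a rho of 0.38 over 362 genes, which share the same libraries. PRR12 had the most peaks of a distal gene, 4 over 35.26 kb, with pileups from 5.84 to 7.79 and no FDR under 0.05.

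The peak with the highest fold enrichment, 8.12, was distal. It ran from 54133626 to 54134037 with a pileup of 23.36 and a background of 1.9995, and it lay in no gene, at 2.12 kb from the nearest protein-coding gene. The next, from 31640277 to 31641088, had a fold enrichment of 7.69 and the same pileup of 23.36, and the nearest protein-coding gene was 289.8 kb away. A peak in VSTM2B-DT, a transcript divergent from VSTM2B, had 6.20, and it was followed by PVR, the poliovirus receptor, with 6.16, POU2F2 with 6.10 and CHST8 with 6.03. Rank 7, from 37287291 to 37287523, was in no gene and had 5.72. A peak shared by ZNF628 and NAT14 also had 5.72, one shared by FAM83E and RPL18 had 5.56, and one in FOSB, an AP-1 transcription factor, had 5.51. Of the 10 peaks, 3 were distal, and the distal segment held 9.43% of the peaks of 19q. At a given pileup the fold enrichment is higher where the background is lower, and the segments were divided on the background. The number of distal peaks here therefore follows in part from the construction. Both peaks with 5.72 had 11 fragments and a background of 1.04635.

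The peaks with the highest pileup were for the most part not those with the highest fold enrichment, and 2 of 10 were on both lists. FCGBP, which codes for a mucus protein built of repeated domains, held 4 of the first 6, with pileups of 31.15, 30.18, 26.28 and 24.34. Their backgrounds were 9.999, 10.001, 9.998 and 8.001, and their fold enrichments were 2.92, 2.83, 2.48 and 2.82. A distal peak from 50098948 to 50099180, 50.3 kb from the nearest protein-coding gene, had a pileup of 29.2 with a background of 9.998, and a peak in CYP2A7, a member of a cytochrome P450 cluster, had 26.28 with 8.998. In all 6 the local background was high as well. The other 4 had pileups of 23.36 to 24.34 with backgrounds of 2.17 to 4.19. They were in LOC124904790, in LINC03078, in FOSB and in the intergenic peak from 31640277. The distal peak from 54133626 was tied with the last 2 at 23.36. The longest peaks were 1745 bp over DMPK and DMWD, 1507 bp in FCGBP, 1338 bp in DMPK, the muscle kinase gene, 1211 bp in an intergenic peak from 29887616 to 29888826, and 1182 bp in LOC124904790 and CYP2S1.

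Gene families differed first of all by the segment they were in. Among zinc finger genes (symbols starting with ZNF, ZFP or the like) 26 of 66 proximal genes (39.4%, 28.5% to 51.5%) and 16 of 115 distal genes (13.9%, 8.75% to 21.4%) had a peak. For all other protein-coding genes the shares were 79.4% (74.4% to 83.6%) and 25.5% (21.0% to 30.5%), so zinc finger genes were below them in both segments. This also held per length, with 31.4 peaks per Mb of zinc finger genes beside 112 per Mb of other protein-coding genes in the proximal segment, and 6.04 beside 14.9 in the distal segment. The highest pileup in the list, 22.39, was at ZFP36, which codes for a protein that destabilises mRNA and is taken in by its symbol, and ZNF536 followed with 15.58.

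Families of the distal segment stood beside a share of 22.4% over all its protein-coding genes. Of 15 kallikreins, secreted serine proteases, 4 had a peak, with the highest pileup, 7.79, at KLK5, and 6.81 at KLK10. Of 12 genes of the SIGLEC list, lectins that bind sialic acid, 1 had a peak, SIGLEC6 with a pileup of 6.81. Of 9 NLRP genes, which code for inflammasome proteins and their relatives, 1 had peaks, NLRP9 with 2 and a highest pileup of 8.76. In the leukocyte receptor complex 3 of 24 distal genes had a peak, among them KIR2DL4 with a pileup of 6.81, and the proximal KIRREL2, an adhesion protein taken in by the first letters of its symbol, had 5 peaks and a pileup of 15.58. The share of genes with a peak was 26.7% for the kallikreins (10.9% to 52.0%), 8.33% for SIGLEC (1.49% to 35.4%), 11.1% for NLRP (1.99% to 43.5%) and 12.5% for the leukocyte receptor complex (4.34% to 31.0%). Each of these intervals holds the share of all distal genes, so none of the 4 families is set apart from it. Per Mb of gene the kallikreins, which are short genes, had 37.1 peaks (4 peaks) beside 12.1 for all distal protein-coding genes, and the other 3 had 5.13 to 9.24 on 1 to 3 peaks each.

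Families of the proximal segment stood beside a share of 72.1% over all its protein-coding genes. In the PSG and CEACAM list, glycoproteins of the immunoglobulin superfamily, 13 of 21 proximal genes had a peak (61.9%, 40.9% to 79.2%), which does not set the list apart from that share, with pileups of up to 14.6 at CEACAM16 and 13.63 at PSG5. Of 6 CYP2 genes 5 had a peak, with 3 peaks each at CYP2A7, CYP2B6 and CYP2F1, and the highest pileups were 26.28 at CYP2A7 and 14.6 at CYP2S1. Per Mb of gene the proximal PSG and CEACAM genes had 43.5 peaks (16 peaks) and the CYP2 genes 143 (11 peaks). All proximal protein-coding genes had 90.9 per Mb. Members of both families are alike in sequence, and how reads were shared among copies was not tested.

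Lists of genes by function were found on both sides, and their counts are to be read beside the 72.1% of all proximal and the 22.4% of all distal protein-coding genes with a peak. Both proximal genes for ribosomal proteins had peaks, RPS16 with 2 and a highest pileup of 21.42 and RPS19 with 3 and 15.58, and 1 of 6 distal ones did, RPL18. Among genes for RNA binding and splicing 9 of 14 proximal (64.3%) and 3 of 7 distal genes (42.9%) had a peak, led by SUPT5H, a transcription elongation factor, with a pileup of 18.5 and CLASRP with 17.52. HNRNPL, a relative of HNRNPK, had 3 peaks and a pileup of up to 15.58. Of the DNA repair list 3 of 3 proximal and 6 of 9 distal genes had a peak, with XRCC1, a scaffold of single-strand break repair, at 21.42 and ERCC2, a helicase of nucleotide excision repair, at 16.55. That distal share, 66.7% (35.4% to 87.9%), was the highest of the lists, over 9 genes. Its interval lay above 22.4%, but the share rested in part on genes outside repair proper. The 6 were LIG1 and POLD1, a ligase and a polymerase of replication and repair, TRIM28, the corepressor of KRAB zinc finger proteins, UBE2M, an enzyme of neddylation, and the zinc finger genes FIZ1 and ZNF787. Transcription factors and signalling genes had a peak in 18 of 22 proximal (81.8%) and 2 of 9 distal genes (22.2%), near the shares of all genes, led by FOSB with 23.36 and POU2F2 with 19.47. AXL, a receptor tyrosine kinase, had 10 peaks, and TGFB1 and CEBPA had none. All 11 proximal genes of the list of ion channels and muscle had a peak (74.1% to 100%), beside 6 of 12 distal ones (25.4% to 74.6%). Both intervals lay above the shares of all genes, for a list chosen with earlier results of these data known. Per Mb of gene the list had 162 peaks in the proximal segment, beside 90.9 for all proximal protein-coding genes. In the distal segment it had 13.4 (4 peaks) beside 12.1, so per length the distal genes were near all others. CACNG6 and CACNG8 each had 1 peak of 286 bp, with the same pileup of 6.81 and fold enrichment of 2.60. The highest pileups were 20.44 at CAPN12, a calpain, and 18.5 at ACTN4, an actin crosslinker. CLC, counted in that list with 1 peak, codes for a galectin and not for a channel. CAPN12 and ACTN4, which lead the list, code for no channel either, so the counts are those of a list and not of a class.

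Gene starts took a small share of the peaks. The midpoint was within 1000 bp of the start of a protein-coding gene for 120 of 1464 peaks (8.20%, 6.90% to 9.71%), and such windows covered 4.77% of the arm. The share was 7.09% in the proximal segment, beside 3.77% of its sequence, and 18.8% in the distal segment (13.2% to 26.2%), beside 6.21%. On the short arm it was 5.88% beside 4.62%, on chromosome 17 4.75% beside 2.23%, and over all chromosomes 4.29%. The ratio of the share to the sequence was 1.72 on 19q, 1.27 on the short arm and 2.13 on chromosome 17, so 19q did not stand out in it. Few as they were, distal peaks were thus at gene starts more often than proximal peaks, with a ratio to the sequence of 3.04 against 1.88. Within 500 bp these ratios were 3.13 and 2.01. Within 3000 bp they came closer, at 1.81 and 1.56. Pairs of a peak and a gene start were also counted over 891 starts in steps of 500 bp, so a peak near more than 1 start counts more than once. The pairs numbered 32 and 36 in the 2 steps before the start and 40, 42 and 37 in the 3 steps after it. The mean at 2 to 5 kb was 24.4, so the excess reached further after the start than before it. The highest step was at 500 to 1000 bp on 19q. In the proximal segment it was at 0 to 500 bp, with 33 pairs beside 32 in each of the 2 steps that follow. Along protein-coding genes of at least 5 kb, each cut from start to end into 5 stretches of 20%, these held 22.3%, 17.1%, 16.5%, 19.3% and 24.8% of 726 proximal peaks, and 25.6%, 17.1%, 17.1%, 25.6% and 14.6% of 82 distal peaks.

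A peak overlapped the promoter window of 46 of 678 protein-coding genes with a window, 36 of 317 proximal (11.36%) and 10 of 361 distal genes (2.77%). Of 803 protein-coding genes 678 were matched to a window. The highest pileups were 21.42 at RPS16, where the peak from 39435855 to 39436970 had a fold enrichment of 4.32 and an FDR of 5.05e-05, 20.44 at LOC124904711 and at LOC107985317, 17.52 at DMPK and LOC124904724, 16.55 at CATSPERG, a subunit of the sperm calcium channel complex, and at VASP, and 15.58 at AXL, CCDC97 and RPS19. In the distal segment FAM83E had 13.63 with a fold enrichment of 5.56, NAT14 had 10.71 with 5.72 and HAS1, a hyaluronan synthase, had 7.79 with 4.295. Over the peaks at promoter windows of protein-coding genes, the 9 distal ones had a median pileup of 6.81 and a median fold enrichment of 3.82, and the 38 proximal ones 12.66 and 3.25. The ranges of fold enrichment overlapped, from 2.60 to 5.72 in the distal and from 2.09 to 4.60 in the proximal segment. In the printed sequences G and C made up 68.8% in RPS16, 63.6% in RPS19 and CATSPERG, 64.4% in AXL, 59.6% in DMPK, 62.4% in FAM83E, 72.8% in NAT14 and 69.2% in HAS1.

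Short runs of letters were searched on both strands of the promoter windows, 3 in all, none of which holds another. The run CCCTCCC, a C-rich run of the kind KH domains bind, was in 49 of 122 windows of 19q with a peak midpoint inside or within 500 bp (40.2%, 31.9% to 49.0%), in 32.4% of the other 19q windows (29.5% to 35.3%) and in 26.6% of all promoter windows. GCGAGG was in 25.4% (18.5% to 33.8%), 24.5% and 21.99%, and CTAATG in 3.28% (1.28% to 8.13%), 4.80% and 6.50%. The interval of the windows with a peak reached into that of the other 19q windows for each of the 3. Windows with a peak also had more G and C, 63.5% beside 61.1% and 57.5%, and the part of base composition in the counts of CCCTCCC was not tested. Of the sequences above, RPS19 had CCCTCCC at 2 places and GCGAGG at 1, and AXL, DMPK, FAM83E and HAS1 had CCCTCCC at 1. A match is a description of letters and names no site of binding.

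MicroRNA genes were mostly distal. Of 86 hairpins 14 were proximal and 72 distal, and 10 had a peak midpoint within 1000 bp, 6 proximal (42.9%) and 4 distal (5.56%), beside the 72.1% and 22.4% of protein-coding genes, which are longer. MIR6887 was under a peak from 35122478 to 35122797 with a pileup of 8.76, a fold enrichment of 2.67 and an FDR of 0.668, a weak peak for its segment. The large cluster of placental microRNAs from MIR512-1 to MIR519A2, with 43 hairpins over 95.8 kb (chr19:53666679-53762430), held 1 peak, or 10.4 per Mb, near the 10.8 per Mb of the distal segment.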

How the data were processed

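HNRNPK ChIP-seq of H1299 cells was analysed from 1 deposited peak list, called on 1 IP against 1 input library. The peak names spell H1299 with another initial letter, and the list was read as that of the H1299 IP. The submitters' processing notes name Trimmomatic 0.36, STAR 2.5.3a, MACS2, bedtools, HOMER and GRCh38. In the deposited columns, fold enrichment is the ratio between IP coverage and local background, with 1 added to each. The deposited p-value and FDR are on a linear scale. The deposited pileup is a signal, the IP coverage in scaled fragments. Read depth per library was not analysed here.

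Peaks were placed by midpoint on RefSeq genes of GRCh38.p14. Densities use the length from the first to the last gene or peak of each stretch. Shares carry Wilson intervals and medians binomial rank intervals. Genes named are those at the 10 peaks of highest fold enrichment, the 10 of highest pileup and the 5 longest, the 10 with most peaks, those at the 8 highest promoter peaks, up to 3 a bin in the densest and sparsest bins and up to 2 a list. Others, such as HNRNPL, SYMPK, TSHZ3, TGFB1, CEBPA, PRR12 and the distal promoters, were chosen after their values were seen. The members and lists were chosen with earlier results of these data known. Alternatives were stricter FDR or fold enrichment, merged peaks, other gene margins and shifted bins. Scripts were tested on simulated data and run with Python 3.11.15, pandas 2.3.3, numpy 2.4.6, scipy 1.17.1 and matplotlib 3.10.9.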

Additional observations from a re-analysis of the deposited data

How the results depend on the processing

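No paired analysis was possible because IP and input have a single library each. Of 41 alternatives over 12 results, 12 left the value within its interval or, for a count, within 1.5 times. The alternatives that require a fold enrichment of 4 and those on the proximal share were chosen after seeing the data.

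With an FDR under 0.05 there were 304 peaks in place of 1464, with a median length of 357.5 bp, a median pileup of 14.6, a median fold enrichment of 3.89 and a median distance of 29.0 kb. Under the same limit 80.3% of peaks were inside or near a gene, 16.6% of protein-coding genes had a peak, the highest bin held 36 peaks and the lowest 0, and 95.4% of peaks were proximal. With a fold enrichment of at least 5 there were 20 peaks, with a median length of 476.5 bp, a median pileup of 18.985 and a median distance of 1351 kb, and 100% of them had an FDR under 0.05 and 80.0% were proximal. At a fold enrichment of at least 4 there were 137 peaks, 80.3% of them proximal. Fewer peaks enter by construction in each case. Merging gave a median length of 328 bp and a median distance of 8.96 kb, and leaving out the lowest length gave 338 bp. An FDR under 0.001 was reached by 3.07%. The share of peaks inside or near a gene was 67.2% for protein-coding genes, 73.8% with 1 base of overlap and 82.8% with a margin of 3000 bp. The share of protein-coding genes with a peak was 40.2% without a margin and 41.3% with 1 base of overlap. Gene starts held 4.58% of peaks within 500 bp and 17.7% within 3000 bp.

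With 1 library of each kind no value has a replicate error. Most 19q peaks had an FDR above 0.05. Sequence under peaks outside promoter windows and mature microRNAs was not used here, and exons and introns were not told apart. The segments were defined on the same peaks they describe.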
